A study of Rattus norvegicus with 6 samples.

Results

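The microRNAs (miRNAs) miR-143 and miR-145 were followed in differentiating rat muscle cells with and without the chemokine interleukin-8 (IL-8). Members were all array probes whose target is an arm of either miRNA, an arm being the mature strand from the 5′ or the 3′ side of the precursor hairpin. This gave 4 arms, rno-miR-143-5p, rno-miR-143-3p, rno-miR-145-5p and rno-miR-145-3p (rno for the rat, left out from here on where the arm is named again), out of 719 rat miRNAs on the array, with 8 of its 1730 probes. The cells (RSkMC) were rat primary skeletal muscle cells from the limbs of newborn animals, bought frozen at the second passage, and were used on day 11 after the switch to 2% horse serum, which induces differentiation. The control group (n = 3 samples) received no agent, and the IL-8 group (n = 3 samples) received recombinant IL-8 at 1 ng/ml. The growth protocol in the labels mentions IL-8 for every sample, while titles and agent labels call 3 samples untreated, and the titles were followed.

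The genes Mir143 and Mir145 lie side by side and are made from one long transcript. The transcription factor SRF and its partner myocardin are known to drive them in smooth muscle. There miR-145-5p represses the growth-promoting factors Klf4 and Klf5, and miR-143-3p represses Elk1, which favours the contractile state. In skeletal muscle tissue the pair is usually ascribed to vessel walls and stromal cells more than to the fibres.

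The hairpins are shown with the mature arms in capitals, since both arms of a pair are cut from one precursor and only 3 of the 4 were detected. All 4 arms and both hairpins matched RefSeq, build GRCr8, and are written 5′ to 3′. Mir143 spans chr18:57371349-57371453 and Mir145 spans chr18:57369983-57370070, both on the minus strand, with 1278 bases between them. Both hairpins fall inside the long non-coding RNA gene Carmn, also named Mir143hg. Whether they are exonic or intronic there was not analysed here.
Mir143: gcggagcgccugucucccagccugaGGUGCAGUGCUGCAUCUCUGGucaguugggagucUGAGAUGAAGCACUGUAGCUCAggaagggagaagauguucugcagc
Mir145: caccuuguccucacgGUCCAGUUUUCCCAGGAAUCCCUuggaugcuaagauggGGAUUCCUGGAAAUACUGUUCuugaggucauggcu

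The mature arms follow with the seed, bases 2 to 8, in capitals. The seed is the stretch that pairs with target messages, and no 2 of the 4 arms share it. Among 693 mature rat miRNAs in the RefSeq table, each seed occurred in 1 miRNA, the arm itself. On the minus strand of chromosome 18 the arms lie at chr18:57371408-57371428 (miR-143-5p), chr18:57371373-57371394 (miR-143-3p), chr18:57370033-57370055 (miR-145-5p) and chr18:57369997-57370017 (miR-145-3p).
miR-143-5p: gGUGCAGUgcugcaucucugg
miR-143-3p: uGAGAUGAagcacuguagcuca
miR-145-5p: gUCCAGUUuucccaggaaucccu
miR-145-3p: gGAUUCCUggaaauacuguuc

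Each arm was read by a shorter and a longer probe, and the longer one adds 1 base, shown in capitals. Their rn4 positions, per the array files, lie on chromosome 18, from 57625145 to 57625193 for miR-143 and from 57623772 to 57623820 for miR-145. Each probe is the exact complement of the arm's 3′ end, and no other mature miRNA of the table holds the same complement.
miR-143-5p, shorter: ccagagatgcagca
miR-143-5p, longer: ccagagatgcagcaC
miR-143-3p, shorter: tgagctacagtgcttcat
miR-143-3p, longer: tgagctacagtgcttcatC
miR-145-5p, shorter: agggattcctggg
miR-145-5p, longer: agggattcctgggA
miR-145-3p, shorter: gaacagtatttccagga
miR-145-3p, longer: gaacagtatttccaggaA

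The longer miR-143-3p probe pairs with bases 4 to 22 and covers 5 of the 7 seed bases, whereas the longer miR-145-5p probe pairs with bases 10 to 23 and covers 0 of them. All probes therefore include the 3′ end of their arm, and how far they reach toward its 5′ end differs between arms.

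Control arrays had 154 to 164 miRNAs well above background, meaning that the scanner software called more than 50% of the spots of at least 1 probe so, and IL-8 arrays had 168 to 180. The 75th percentile of the 264 probes detected on all arrays was 440.1 to 496.8 on control arrays and 539.7 to 568.9 on IL-8 arrays, a ratio of means of 1.17. The geometric mean of 8 spike-in probes for control RNAs added to each sample was 3430 to 3575 and 3364 to 3716. The slide was shared by the 3 control arrays, and the 3 IL-8 arrays shared a different one; slide and treatment cannot be told apart. Whether the samples of a group were separate cultures is not given in the labels. The p-values therefore measure only the spread between these samples, possibly a technical one, and precision is limited by the number of arrays. Of the marker miRNAs, 0 of 14 striated muscle arms, among them those of miR-1, miR-206 and miR-499, reached that call on any array. The 10 smooth muscle and fibroblast arms were those of miR-143, miR-145, miR-199a, miR-214 and miR-21, so 4 of them are the arms described here. Of these 10, 8 reached it on each of the 6 arrays, and 3 of the 8 are arms described here. Other miRNAs of smooth muscle, listed below, were not all detected, and which cells gave the signals was not tested. Of blood, endothelial and epithelial arms, 0 of 10, 0 of 2 and 0 of 14 were so. The listed striated muscle miRNAs were thus without detectable signal in cells labelled as skeletal muscle cells. What level these probes would have detected was not measured. In bulk RNA, fewer cells of a type and less RNA per cell cannot be told apart.

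None of the 3 arms that could be measured passed the test between IL-8 and control. rno-miR-143-3p, rno-miR-143-5p and rno-miR-145-5p exceeded background on all arrays. After scaling their 95% confidence intervals reached at most 14.9% below control for miR-145-5p and a fold of 1.13 for miR-143-5p. miR-145-3p was at background everywhere. The arm with the brightest probes was miR-143-3p, second in mean signal among the 167 miRNAs tested.

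**Figure D1:**
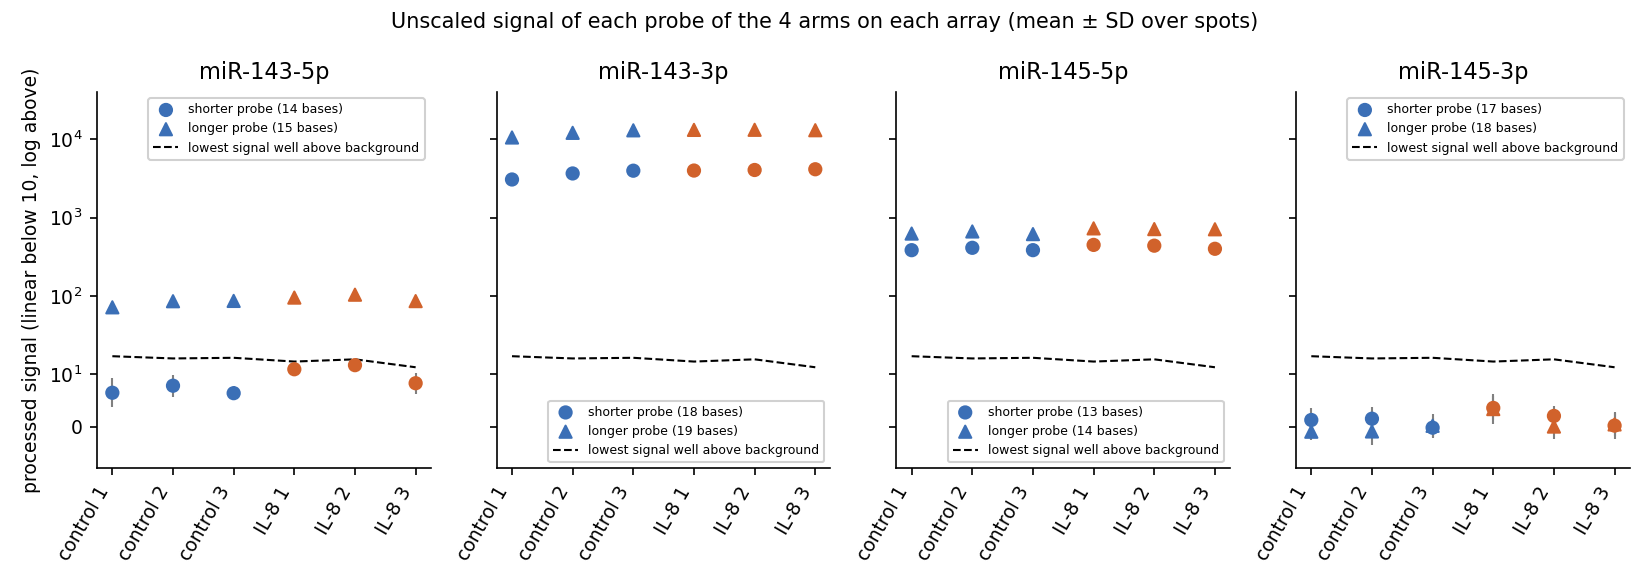
Unscaled processed signal (vertical axis, linear below 10 and logarithmic above) of the shorter (circles) and longer (triangles) probe of each arm on each array, control in blue and IL-8 in orange, with bars for the SD over spots and a dashed line at the lowest signal called well above background on that array. The miR-143-3p probes lie between 3063 and 13177, both miR-145-5p probes between 384 and 729, the longer miR-143-5p probe between 71.7 and 104, and both miR-145-3p probes below the dashed line.

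miR-143-3p is the strand regarded as the functional product of Mir143. Its longer probe had processed signals (background-subtracted intensities, not scaled between arrays) of 10514, 12052 and 12977 on control arrays 1, 2 and 3. On IL-8 arrays 1, 2 and 3 it had 13143, 13177 and 13019. All IL-8 values lay above all control values, and control array 1 was the lowest. The shorter probe gave 3063, 3657 and 3965 in control and 3983, 4048 and 4137 with IL-8, in the same order of groups. The longer probe was 3.27 to 3.43 times as bright as the shorter in control and 3.15 to 3.30 times with IL-8. None of the spots of either probe was saturated, nor was any other miRNA spot. Over the spots of 1 array the longer probe varied by a median of 6.47% (coefficient of variation) and the shorter by 2.55%. Between the 6 unscaled arrays they varied by 8.41% and 10.5%.

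miR-143-5p, the opposite strand of the same hairpin and usually the scarcer one, was read by its longer probe alone. Its signals were 71.7, 85.8 and 86.5 in control and 95.4, 103.9 and 86.1 with IL-8. IL-8 array 3 fell below the highest control array, so the groups overlapped. The shorter probe, which lacks 1 base, stood at 6.49, 7.84 and 6.41 in control and at 11.6, 13.1 and 8.31 with IL-8. It was higher on every IL-8 array, but only 3 of its 60 spots over all arrays were well above background, so it had no usable level and entered no test. On IL-8 arrays 1 and 2 it exceeded the 95th percentile of the 434 negative control spots of its array (9.393 and 9.001), and on the other 4 arrays it did not. The longer probe was 10.9 to 13.5 times as bright as the shorter in control and 7.92 to 10.35 times with IL-8, a ratio that has little meaning with its lower part at background. Over the spots of 1 array the longer probe varied by a median of 5.04%, and between the 6 unscaled arrays by 12.3%.

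miR-145-5p is the strand regarded as the functional product of Mir145. Its longer probe had signals of 625.5, 665.5 and 615.6 in control and of 728.7, 713.2 and 709.5 with IL-8. These groups did not overlap. The shorter probe had 384.2, 411.9 and 384.4 in control and 448.5, 438.4 and 400.1 with IL-8, and here IL-8 array 3 lay below control array 2. The longer probe was 1.60 to 1.63 times as bright as the shorter on 5 of the arrays and 1.77 times on IL-8 array 3. Over the spots of 1 array the longer probe varied by a median of 3.46% and the shorter by 2.61%, and between the 6 unscaled arrays by 7.12% and 6.62%.

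miR-145-3p, the opposite strand of Mir145, gave signals of -0.968 to 3.59 over both probes and all arrays. Of the 60 spots of each probe over all arrays, 0 were well above background. The 95th percentile of the negative control spots was 7.92 to 11.9 on these arrays. No fold and no arm ratio of miR-145 can therefore be given, and what level of miR-145-3p the probes would have detected was not measured.

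The unscaled signals must be read against those of the other miRNAs. Before scaling, the mean signal of the 5 probes in use was 1.09 to 1.17 times as high on IL-8 arrays as on control arrays, while the 75th percentile itself was 1.17 times as high. In the limma fit without scaling 0 of the 3 arms passed an adjusted p of 0.05 and 0 an unadjusted p of 0.05, while 30.5% of the 167 tested miRNAs passed the adjusted threshold. The groups did not overlap, IL-8 being higher, for miR-143-3p and miR-145-5p, 2 of the 3 arms. This was so for 61.1% of all tested miRNAs, so the share of arms is near the background.

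After each array was divided by that percentile, the log2 level of rno-miR-143-3p was 3.69, 3.80 and 3.85 on control arrays 1, 2 and 3 and 3.67, 3.73 and 3.77 on the IL-8 arrays. The means were 3.78 ± 0.08 (SD, n = 3) and 3.72 ± 0.05 (SD, n = 3), and 2 of the IL-8 arrays fell within the range of the controls. The log2 change was -0.06 ± 0.06 (SE), a fold of 0.960 with a 95% confidence interval of 0.869 to 1.06 (limma adjusted p = 0.664). The level of rno-miR-143-5p was -2.62, -2.47 and -2.52 in control and -2.58, -2.40 and -2.65 with IL-8. Here the IL-8 arrays held both the highest and the lowest value. Its fold was 0.996, with an interval of 0.878 to 1.13 (limma adjusted p = 0.973). The level of rno-miR-145-5p was 0.16, 0.14 and -0.03 in control and 0.0071, 0.026 and -0.019 with IL-8. All 3 IL-8 values lay between those of control arrays 2 and 3. Its log2 change was -0.08 ± 0.06 (SE), a fold of 0.944 with an interval of 0.851 to 1.05 (limma adjusted p = 0.5001).

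Where both probes of an arm were in use, their changes had the same sign after scaling. The log2 change was -0.04 and -0.08 for the shorter and the longer miR-143-3p probe, and -0.11 and -0.06 for those of miR-145-5p. The shorter probe lies within the sequence of the longer, so a pair is no independent measurement. Scaling reduced the spread between the 6 arrays from 12.3% to 6.52% for the miR-143-5p probe, from 8.41% to 4.51% for the longer and from 10.5% to 5.5% for the shorter miR-143-3p probe. For miR-145-5p it went from 7.12% to 5.34% and from 6.62% to 6.5%. Control array 1 was the lowest of the controls for miR-143-3p and the highest for miR-145-5p, and control array 3 was the reverse.

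**Figure D2:**
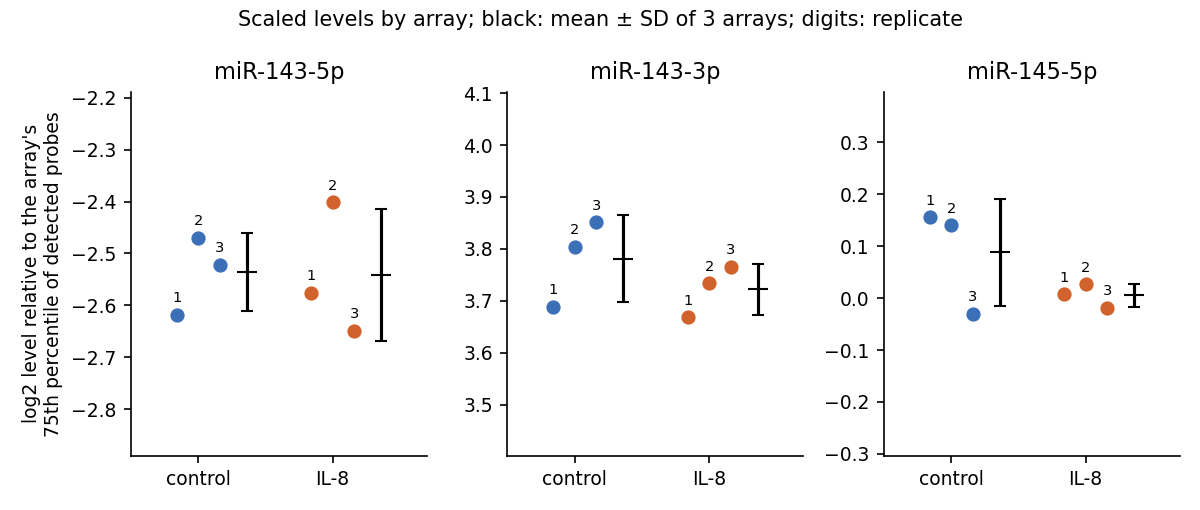
Scaled log2 level (vertical axis, relative to the 75th percentile of detected probes of the array) of the 3 measured arms on the control (blue) and IL-8 (orange) arrays, with replicate numbers and black bars for the mean ± SD of 3 arrays. The groups overlap for each arm, and the means differ by -0.06 for miR-143-3p, -0.0057 for miR-143-5p and -0.08 for miR-145-5p.

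Of the 3 tested arms 0 passed an adjusted p of 0.05 in limma (Benjamini-Hochberg over the 167 miRNAs), and 0 had an unadjusted p under 0.05. Of all tested miRNAs 10 passed, which is 5.99%, with 2.99% higher and 2.99% lower, and 41 had an unadjusted p under 0.05. Non-overlapping groups were found for 0 of the 3 arms, against 29.9% of all tested miRNAs. All 3 arms had a log2 change below 0 (median -0.059), against 73 of the 167 tested miRNAs and a median of 0.016 over them. That sign depends on the scaling: with no scaling and with spike-in scaling all 3 lay above 0, between 0.124 and 0.227, where the median of all tested miRNAs was itself 0.235 and 0.215. With spike-in scaling 20.4% of the 167 passed, and 0 of the 3 arms. With quantile normalization miR-143-3p stood at 0.0070. Leaving out single arrays also turned the sign of miR-143-5p, up to 0.051 without IL-8 array 3. In no setting tried did any of the 3 pass the adjusted threshold. The absolute change of miR-145-5p was the median of the 167, with 83 miRNAs smaller and 83 larger. That of miR-143-3p exceeded 61 and that of miR-143-5p exceeded 6. The spread between arrays of one group (residual SD) was 0.07 for miR-143-3p, 0.07 for miR-145-5p and 0.10 for miR-143-5p, against a median of 0.08.

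**Figure D3:**
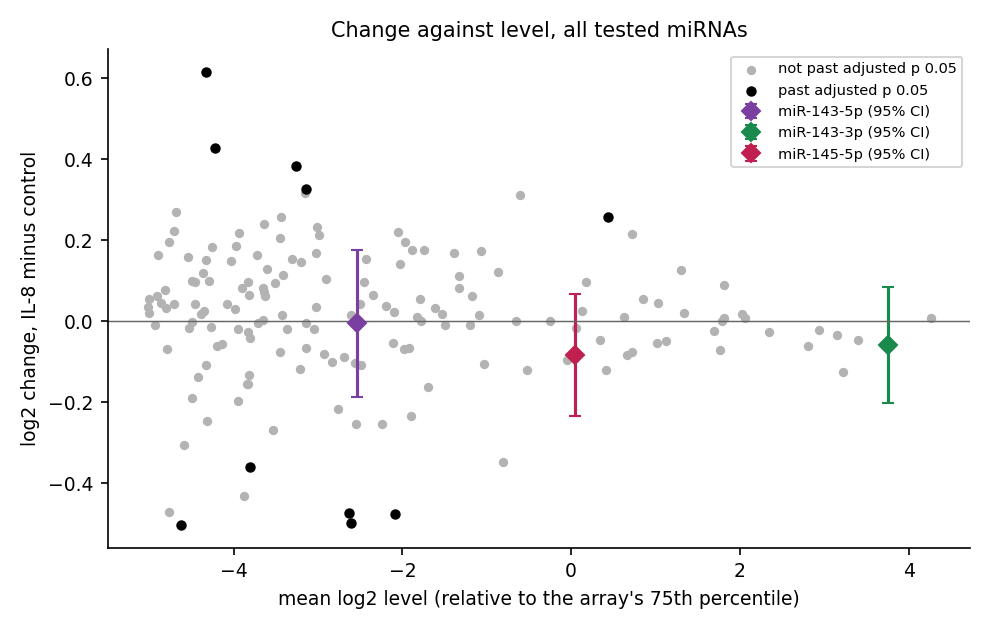
Log2 change with IL-8 (vertical axis) against mean log2 level (horizontal axis) for the 167 tested miRNAs, with those past an adjusted p of 0.05 in black and the 3 measured arms as coloured diamonds with 95% confidence intervals. All 3 intervals include 0, and miR-143-3p lies at the right edge, second to 1 other miRNA in level.

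The balance between the arms of miR-143, and between miR-143-3p and its neighbour miR-145-5p, overlapped between the groups. Signals of different probes are not on one scale, so only the shift of a difference between groups is read here. Within an array, the log2 signal of miR-143-5p minus that of miR-143-3p was -6.31, -6.27 and -6.37 in control and -6.24, -6.14 and -6.41 with IL-8. The IL-8 arrays spanned a range that held all control values. The means were -6.32 ± 0.05 (SD, n = 3) and -6.26 ± 0.14 (SD, n = 3), a shift of 0.05 (exact two-sided permutation test, p = 0.6). For miR-143-3p minus miR-145-5p, the values were 3.53, 3.66 and 3.88 in control and 3.66, 3.71 and 3.78 with IL-8. Control array 1 was the lowest and control array 3 the highest of the 6. The means were 3.69 ± 0.18 (SD, n = 3) and 3.72 ± 0.06 (SD, n = 3), a shift of 0.02 (exact two-sided permutation test, p = 0.9). These were 2 comparisons, each with a Benjamini-Hochberg adjusted p of 0.9 from the exact tests. With 3 against 3 arrays the smallest p that can be had is 0.1.

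In the order of scaled signal, miR-143-3p was in second place on each of the 6 arrays, below miR-21-5p and above miR-125b-5p. miR-21-5p, abundant in many stromal cells, had a mean level of 4.26, above miR-143-3p on 6 of 6 arrays, and miR-125b-5p had 3.401 and was below it on 6 of 6. miR-145-5p held place 32, and places 29 to 32 on single arrays. Its upper neighbour miR-652-5p, at 0.06 against 0.05, was above it on 3 of 6 arrays, and its lower neighbour miR-221-3p, at -0.05, was below it on 4 of 6, so these levels do not differ beyond their spread. miR-143-5p held place 73, and places 70 to 78 on single arrays. Its neighbours were miR-22-5p at -2.50, above it on 5 of 6 arrays, and miR-34c-5p at -2.55, below it on 3 of 6. The order is one of probe brightness and is no measure of relative amount, as the pairs of probes that differ by 1 base show.

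The arms of the cluster were not each other's nearest profiles over the arrays. Likeness was measured as the root mean square difference of mean-centred log2 levels over the 6 arrays, given as a description of values that share scaling and slide. The difference was 0.109 between miR-143-3p and miR-145-5p, and 92 of the 166 other tested miRNAs were closer to miR-143-3p than miR-145-5p was. That count was taken from the side of miR-143-3p only, whose median difference was 0.1. From the side of miR-145-5p the same 0.109 lay below the median of 0.133. Between the arms of miR-143 the difference was 0.0902, with 34 of 166 closer to miR-143-5p. The profiles most like miR-143-3p were those of miR-27b-3p (0.0184) and miR-23b-3p (0.0256), both on chromosome 17, and miR-23a-3p (0.0274) on chromosome 19, against a median of 0.1 over 164 miRNAs. For miR-145-5p they were miR-664-3p (0.0278), miR-3593-3p (0.0519) and miR-99b-5p (0.0567), with a median of 0.133. For miR-143-5p they were miR-431 (0.0440), miR-93-5p (0.0459) and miR-341 (0.0487), with a median of 0.119. None of these 9 miRNAs passed the limma test, the smallest adjusted p being 0.158. They were picked on the same arrays for likeness to arms that did not pass, so this is no separate result.

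miRNAs known from the same smooth muscle and stromal programmes were counted from lists. Of miRNAs tied to the contractile state of smooth muscle, 8 of 10 names matched the array. The names without a match were miR-1a-3p and miR-1b. The array did hold miR-1-3p and miR-1-5p, neither of them well above background on any array. From this list 4 miRNAs were tested, and 0 rose and 0 fell, with a median log2 change of 0.01. On the array but without enough signal to be tested were miR-133a-3p, miR-133b-3p, miR-195-5p and miR-490-3p. The arms of miR-133a and miR-133b also stand among the striated muscle markers. The members with the smallest p were miR-28-5p, at 0.11 ± 0.06 (SE), and miR-100-5p, at 0.04 ± 0.06 (SE). Of 12 miRNAs tied to the proliferative state of smooth muscle, 9 were tested, 0 rose and 1 fell. The log2 change was above 0 for 2 of the 9 and below 0 for 7, with a median of -0.10. Over all 167 tested miRNAs it was above 0 for 94 and below 0 for 73. The 9 are not independent, since both arms of miR-21 are among them. The list member that fell was miR-132-3p, a CREB-responsive miRNA. Its log2 level was -3.63 ± 0.10 (SD, n = 3) in control cells against -3.99 ± 0.04 (SD, n = 3) in IL-8 cells. The fold was 0.779 (limma adjusted p = 0.0218). What miR-132-3p does in smooth muscle growth was not examined here. miR-212-3p, of the same locus and not on the list, had a log2 change of 0.06 ± 0.07 (SE) with limma adjusted p = 0.676. miR-132-3p was lower in all 19 alternatives tried, a set run for it after its value was seen. It passed in 10 of them (limma adjusted p from 0.00109 to 0.688). Among the settings that lost the call were no scaling, at -0.13 (limma adjusted p = 0.303), spike-in scaling, at -0.15 (0.296), the 75th percentile over all probes, at -0.46 (0.688), and no filter, at -0.36 (0.414). It was also lost without control array 2, at -0.37 (limma adjusted p = 0.0523), IL-8 array 1, at -0.38 (0.103), IL-8 array 2, at -0.36 (0.157), or IL-8 array 3, at -0.34 (0.169). miR-222-3p, which represses the cell cycle inhibitor p27, had a change of -0.16 ± 0.06 (SE) with limma adjusted p = 0.188. Of 12 fibroblast and mesenchymal miRNAs, 11 were tested, 0 rose and 0 fell, with a median of -0.02. miR-22-3p stood at -0.13 ± 0.06 (SE) and miR-152-3p at 0.12 ± 0.06 (SE). Over all 167 tested miRNAs the share that fell was 2.99% and the median change 0.016.

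**Figure D4:**
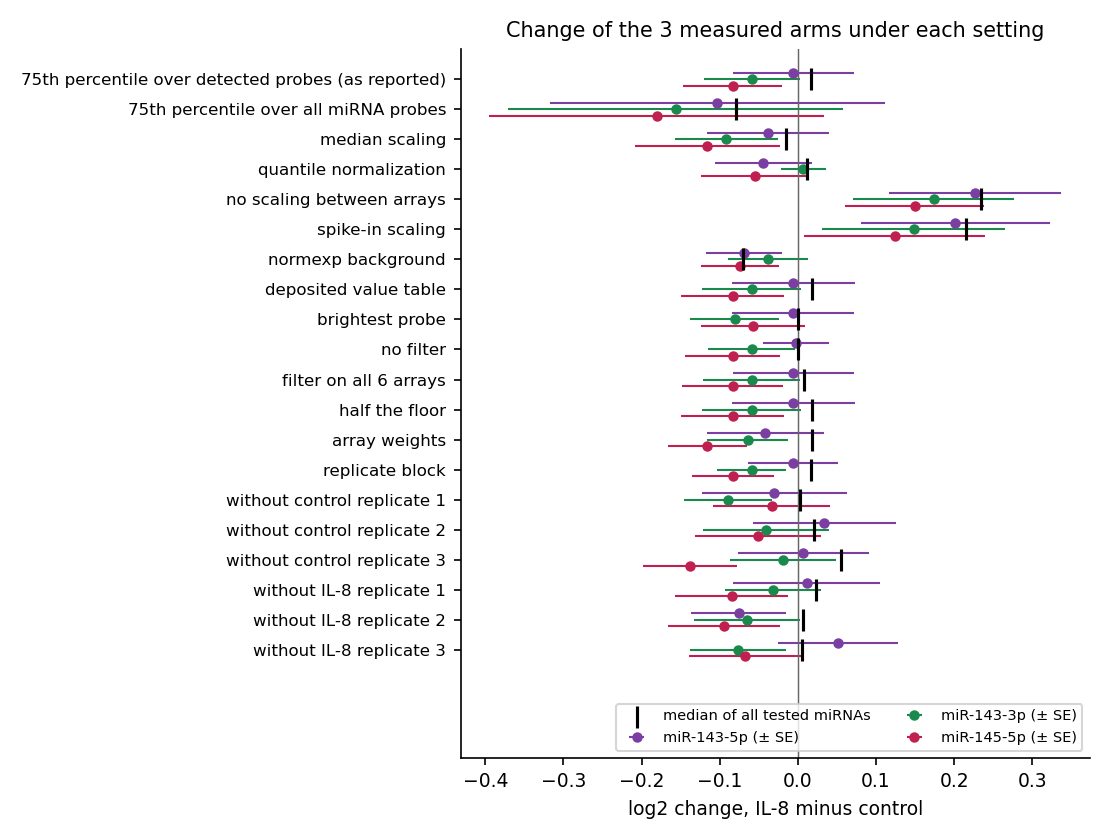
Log2 change with IL-8 (horizontal axis, ± SE) of the 3 measured arms under each way of processing (vertical axis), with a black tick at the median of all tested miRNAs in that setting. The arms move to the right together with the black tick when arrays are not scaled or are scaled on spike-ins, and otherwise lie between -0.18 and 0.05.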

How the data were processed

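Total RNA of 6 samples was labelled with Cy3 and hybridised to 1 Agilent miRNA array each, per the labels' protocols. The deposited array files hold intensities on a linear scale, which per the file headers were background-subtracted, detrended over the slide and left unscaled between arrays by Agilent Feature Extraction 10.10.1.1; other 0 or 1 flags per spot, such as well above background, come from the same software. A deposited value table equalled the software's total probe signal in all 15095 values per array (relative tolerance 0.0001), so it is linear, not centred and not scaled; its column medians ran from -1.36 to 0.307.

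Spots of a probe were averaged without outlier flags (3014 of 86280 miRNA spots), divided by the array's 75th percentile over 264 probes, floored at a log2 level of -5.04 and logged. Testing took the 167 of 719 miRNAs with a probe above background throughout the 3 arrays of either group, and averaged such probes. limma 3.58.1 in R 4.3.3 compared the groups, and its code was tested on simulated data. Within-array differences were compared by exact permutation tests (scipy 1.17.1). Percentile scaling removes any change shared by all miRNAs. The members and lists were chosen with earlier results of these data known. Named miRNAs are the 4 arms, the 3 profiles most like each, its neighbours in signal order and the 2 of smallest p in each list. Striated muscle, smooth muscle and fibroblast, blood, endothelial and epithelial markers came from general knowledge.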

Additional observations from a re-analysis of the deposited data

How the results depend on the processing

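Over 19 alternatives each, the adjusted p ran from 0.162 to 0.998 for miR-143-3p, from 0.102 to 0.998 for miR-143-5p and from 0.130 to 0.998 for miR-145-5p, and 0 passed. The log2 change turned sign without scaling (0.17, 0.23 and 0.15 for miR-143-3p, miR-143-5p and miR-145-5p), with spike-in scaling (0.15, 0.20 and 0.12) and, for miR-143-3p, with quantile normalization (0.0070). With 1 array left out it ran from -0.089 to -0.019 for miR-143-3p, from -0.076 to 0.051 for miR-143-5p and from -0.14 to -0.034 for miR-145-5p. The shift of the miR-143 arm difference turned to -0.030 with the normexp background and ran from -0.011 to 0.13 with 1 array left out. That of miR-143-3p minus miR-145-5p turned to -0.023 with the brightest probe and ran from -0.056 to 0.12 with 1 array left out. The count of miRNAs past the threshold, 10 as reported, was 0 with the percentile over all probes (9 at unadjusted p under 0.05), 17 with quantile normalization, 51 without scaling, 34 with spike-in scaling, 24 with normexp, 1 with no filter and 28 with array weights, and 1 to 29 with 1 array left out (29 without control 3, 5 without control 2, 3 without IL-8 1, 1 without IL-8 2 or IL-8 3). Without control 3, miR-145-5p stood at -0.14 (limma unadjusted p = 0.0450, adjusted p = 0.130), and its groups did not overlap, IL-8 being lower. In that setting 59 of the 167 tested miRNAs had an unadjusted p under 0.05. Without control 1 the groups of miR-143-3p did not overlap either, IL-8 being lower, at -0.089 (limma adjusted p = 0.461). The share of all miRNAs without overlap in these 2 settings is not given here. Causes were not tested. The correlation of deviations between a control and an IL-8 array of equal replicate number was 0.287, 0.330 and 0.085 for numbers 1, 2 and 3. For unequal numbers it ran from -0.582 to 0.326. These few values do not settle whether equal numbers mark paired arrays. With the replicate block the changes stayed at -0.059, -0.0057 and -0.083 for miR-143-3p, miR-143-5p and miR-145-5p, with limma adjusted p of 0.451, 0.960 and 0.381, the count of calls was 8, and the within-array shifts stayed at 0.053 and 0.024 (exact sign-flip p of 0.5 and 0.75, where 0.25 is the smallest possible). The block also ended the call of miR-132-3p, at an unchanged log2 change of -0.36 (limma adjusted p = 0.0559).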
